A study of Mus musculus with 6 samples.

Results

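The genes described here are the Id inhibitors Id1, Id2, Id3 and Id4, the E proteins Tcf3, Tcf4 and Tcf12, and the basic helix-loop-helix (bHLH) antagonists of MyoD, Twist1, Twist2 and Msc. They were chosen by name, and every non-control probe whose RefSeq accession belongs to one of them was taken, which gave 13 probes for 10 genes among 39429 probes on the array. RNA came from C2C12, an established mouse myoblast line that divides in serum-rich medium and fuses into myotubes when serum is withdrawn. Cells of one group received siRNA directed at Meg3, a long non-coding transcript (siRNA-MEG3, 3 arrays), and those of the other a negative control siRNA (siRNA-NC, 3 arrays). Both groups grew in medium with 10% serum and, per the labels, were transfected at 70% to 80% density with siRNA given as "20 um". How long after transfection the RNA was taken is not stated in these sources. The comparison asks which of these transcripts differed in level when Meg3 was targeted.

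Skeletal muscle determination factors such as MyoD bind DNA as dimers with an E protein at the sequence CANNTG, the E-box. Id proteins carry the dimerisation domain without the basic DNA-binding region, so they hold E proteins in dimers that do not bind DNA, and they are known as inhibitors of differentiation in dividing myoblasts and as target genes of bone morphogenetic protein (BMP) signalling. Twist1 and Twist2 interfere with MyoD and its E-protein partners, and Msc, also named MyoR, is a repressor that occupies E-boxes in undifferentiated myoblasts.

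None of the 9 member probes that could be measured passed the threshold, an adjusted p under 0.05 in limma's moderated test over all 26348 measured probes, where 1.35% of all probes did (0.994% higher and 0.361% lower with siRNA-MEG3). Scaled signals of Id1, Id2, Tcf12 and 1 probe of Tcf4 were higher on every siRNA-MEG3 array than on every siRNA-NC array, by 1.39-fold, 1.62-fold, 1.36-fold and 1.56-fold, and those of Twist2 and a dim probe of Tcf3 were lower on every siRNA-MEG3 array. Groups that do not overlap were common on the array, at 47.2% of all measured probes (28.7% higher and 18.5% lower). Id3, Tcf3 and Tcf4 varied more between the siRNA-NC arrays than between the groups. Id4 and Msc were not well above background on any array, and Twist1 only on siRNA-MEG3 array 2.

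The labels call the 3 arrays of a group biological replicates, but the arrays did not behave as 6 samples. On 227 probes printed 10 times, the spot-to-spot scatter of siRNA-MEG3 array 1 returned on array 3 (r = 0.98), as it would in repeat scans of one hybridised array. Probe means of siRNA-NC arrays 1 and 3 differed about as much as spot noise alone would make them (variance ratio 1.04). Each pair was averaged and counted as 1 sample, so every test compares 2 siRNA-MEG3 with 2 siRNA-NC samples. The p-values measure only the spread between these samples, which may be technical. For siRNA-MEG3 array 2 the variance ratio against arrays 1 and 3 was only 1.33 and 1.45. For siRNA-NC array 2 against arrays 1 and 3 it was 159 and 153. Before scaling, the 75th percentile of processed signal was 2266 on siRNA-NC array 2, and 1283 and 1220 on siRNA-NC arrays 1 and 3. On the siRNA-MEG3 arrays it was 1168 to 1271. What this brightness adds to the spread of siRNA-NC was not tested. All siRNA-NC arrays were read in 1 scan and the siRNA-MEG3 arrays in 2 other scans, so for every value below the scan and the group cannot be told apart. Between 62.8 and 69.3% of spots on siRNA-MEG3 arrays, and between 70.1 and 75.2% on siRNA-NC arrays, read well above background. The 3 probes of Meg3 itself never read well above background with siRNA-MEG3, and 1 of them did so on 1 siRNA-NC array, so the arrays do not check the knockdown. Dark areas, taken as blocks (30 by 17 spots) with over 5% of spots more than 4-fold below siRNA-NC, covered 21.6, 5.95 and 20.5% of siRNA-MEG3 arrays 1 to 3, and 6 of the 13 member spots lay in such blocks on arrays 1 and 3. Of 8 myotube markers, 8 were well above background on all siRNA-MEG3 arrays and 6 on all siRNA-NC arrays, 5 rose, and their summed scaled signal was 28.4 to 30.3 with siRNA-MEG3 and 6.82 to 8.46 with siRNA-NC. None of 8 myoblast markers passed. Their sum was 63.3 to 65.3 with siRNA-MEG3 and 41.99 to 51.4 with siRNA-NC, carried mainly by Vcam1, Itga7 and Ncam1. Of the 8, 5 had a positive log2 difference, among them Myod1 at 2.29 and Cdh15 at 1.41. Myf5 stood at -2.87, and Des and Pax7 were also negative. The sum of 8 adipocyte markers was 13.2 to 14.2 with siRNA-MEG3 and 4.70 to 5.21 with siRNA-NC, most of it from Lpl, which alone rose in that list and read 11.3 to 12.1 with siRNA-MEG3 and 2.93 to 3.38 with siRNA-NC. Lep was never well above background. The log2 differences of Cidec, Fabp4 and Pparg were 1.00, 0.67 and 0.37, and those of Adipoq, Plin1 and Cebpa were -1.08, -1.14 and -0.40. Adipoq was well above background on 0 and Plin1 on 1 of the 3 siRNA-MEG3 arrays, so the sizes of their differences are uncertain. The macrophage markers summed to 2.35 to 2.80 with siRNA-MEG3 and 2.82 to 3.29 with siRNA-NC. Of the 6 measured, 2 were higher. Mrc1 rose by 2.66 on the log2 scale (limma adjusted p = 0.0254), from a low scaled signal of 0.016 with siRNA-NC to 0.10 with siRNA-MEG3. Csf1r stood at 0.81 and Itgam at -1.11, and neither passed. Osteoblast markers summed to 61.3 to 71.2 with siRNA-MEG3 and 54.9 to 56.1 with siRNA-NC, mostly Spp1, and endothelial markers to 1.03 to 1.38 with siRNA-MEG3 and 0.927 to 0.986 with siRNA-NC, with Emcn and Tie1 never well above background. No osteoblast or endothelial marker passed, nor any of the fibroblast list, whose sums overlapped between the groups. The part of these marker differences in the values below was not tested. In bulk RNA of this kind, a change in the number of cells of one state and a change in RNA per cell cannot be told apart.

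The promoters of Id2, Id3 and Twist2 are shown because these genes cover the patterns met below: higher, without a direction, and lower. Each window holds the 250 bases before the gene's start, 5′ to 3′ on the gene's strand, from RefSeq on GRCm38.p6, with E-boxes in capitals. The Id2 window is chr12:25096093-25096342 (minus strand), the Id3 window chr4:136143572-136143821 (plus strand) and the Twist2 window chr1:91801211-91801460 (plus strand).
Id2: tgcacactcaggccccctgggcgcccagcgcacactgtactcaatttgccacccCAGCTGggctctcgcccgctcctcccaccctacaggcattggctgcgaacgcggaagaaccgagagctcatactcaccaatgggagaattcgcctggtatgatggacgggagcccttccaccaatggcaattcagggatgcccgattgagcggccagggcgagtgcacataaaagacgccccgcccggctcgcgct
Id3: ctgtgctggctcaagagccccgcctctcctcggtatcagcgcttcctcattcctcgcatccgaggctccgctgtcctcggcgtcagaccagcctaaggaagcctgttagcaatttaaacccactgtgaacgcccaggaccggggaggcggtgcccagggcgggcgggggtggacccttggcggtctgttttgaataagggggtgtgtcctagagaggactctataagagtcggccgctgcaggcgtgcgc
Twist2: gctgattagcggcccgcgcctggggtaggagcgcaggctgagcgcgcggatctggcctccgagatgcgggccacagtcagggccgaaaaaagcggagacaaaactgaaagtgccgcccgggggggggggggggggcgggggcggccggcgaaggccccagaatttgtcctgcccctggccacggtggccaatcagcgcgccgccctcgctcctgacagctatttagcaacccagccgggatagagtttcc
Motifs were searched on both strands. The Id2 window held 1 E-box, CAGCTG, beginning 196 bases before the start, 1 GGCGCC palindrome and 3 CCAAT boxes. The Twist2 window held 1 CCAAT box and no E-box, and the Id3 window held no match to any of these motifs. Among 32851 windows of the same length, 66.2% held an E-box, 13% held CAGCTG (which is also counted as an E-box), 9.59% held GGCGCC and 33.9% held CCAAT. The search of member windows covered 7 of the 10 genes, and 4 of their 9 windows held an E-box. Id1, Tcf4 and Msc were left out of that search, so these counts do not describe them. These matches describe the letters only.

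Values below are scaled signals, a probe's processed signal divided by the 75th percentile of its array, and no probe's level is set against another's. Id1 encodes an Id protein of dividing cells that responds readily to BMP signalling, and its gene lies on chromosome 2. Id1 read 1.96, 2.16 and 1.99 on siRNA-MEG3 arrays 1 to 3, against 1.45, 1.46 and 1.57 on siRNA-NC arrays 1 to 3. The groups did not overlap, and the arrays of each group lay close together. The log2 difference was 0.48 ± 0.21 (SE, n = 2 samples per group), with a 95% interval from -0.08 to 1.04, and did not pass (limma adjusted p = 0.320).

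Id2, an Id protein gene on chromosome 12, had the smallest p of the 9 measured member probes. It read 3.49, 3.15 and 3.37 on siRNA-MEG3 arrays 1 to 3, against 2.17, 1.97 and 2.02 on siRNA-NC arrays 1 to 3. All siRNA-MEG3 arrays lay above all siRNA-NC arrays. Scaled signal averaged 3.29 ± 0.20 with siRNA-MEG3 and 2.03 ± 0.09 with siRNA-NC (SD, n = 2 samples each). The log2 difference was 0.70 ± 0.21 (SE; 95% interval 0.13 to 1.26), with an unadjusted limma p of 0.0262 and an adjusted p of 0.201. Id2 was the only member among 9 with an unadjusted p under 0.05, a level that 19.1% of all probes reached, and 24.8% of all probes differed by a larger size.

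Id3, on chromosome 4, encodes an Id protein closely related to Id1. Its scaled signal was 1.71, 1.62 and 1.63 on siRNA-MEG3 arrays 1 to 3, against 1.28, 2.49 and 1.29 on siRNA-NC arrays 1 to 3. The siRNA-NC arrays fell on both sides of the siRNA-MEG3 arrays, with array 2 highest. siRNA-NC array 2 stood 0.96 above the mean of arrays 1 and 3 on the log2 scale, and the difference between the groups was -0.12 ± 0.38 (SE; 95% interval -1.16 to 0.91; limma adjusted p = 0.906). Without siRNA-NC array 2 the difference changed sign, to 0.36 (adjusted p = 0.184), in a fit in which the lone siRNA-NC sample was assumed to vary like the other group. The Id3 spot lay in a dark block on siRNA-MEG3 arrays 1 and 3, and its reading on array 2, outside such a block, was nearly the same.

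Id4, on chromosome 13, is the Id gene best known from neural and glial cells. Its processed signal before scaling was 5.83, 10.8 and 5.70 on siRNA-MEG3 arrays 1 to 3 and 4.48, 17.1 and 8.33 on siRNA-NC arrays 1 to 3. None of these was well above background, and no fold change is given.

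**Figure D1:**
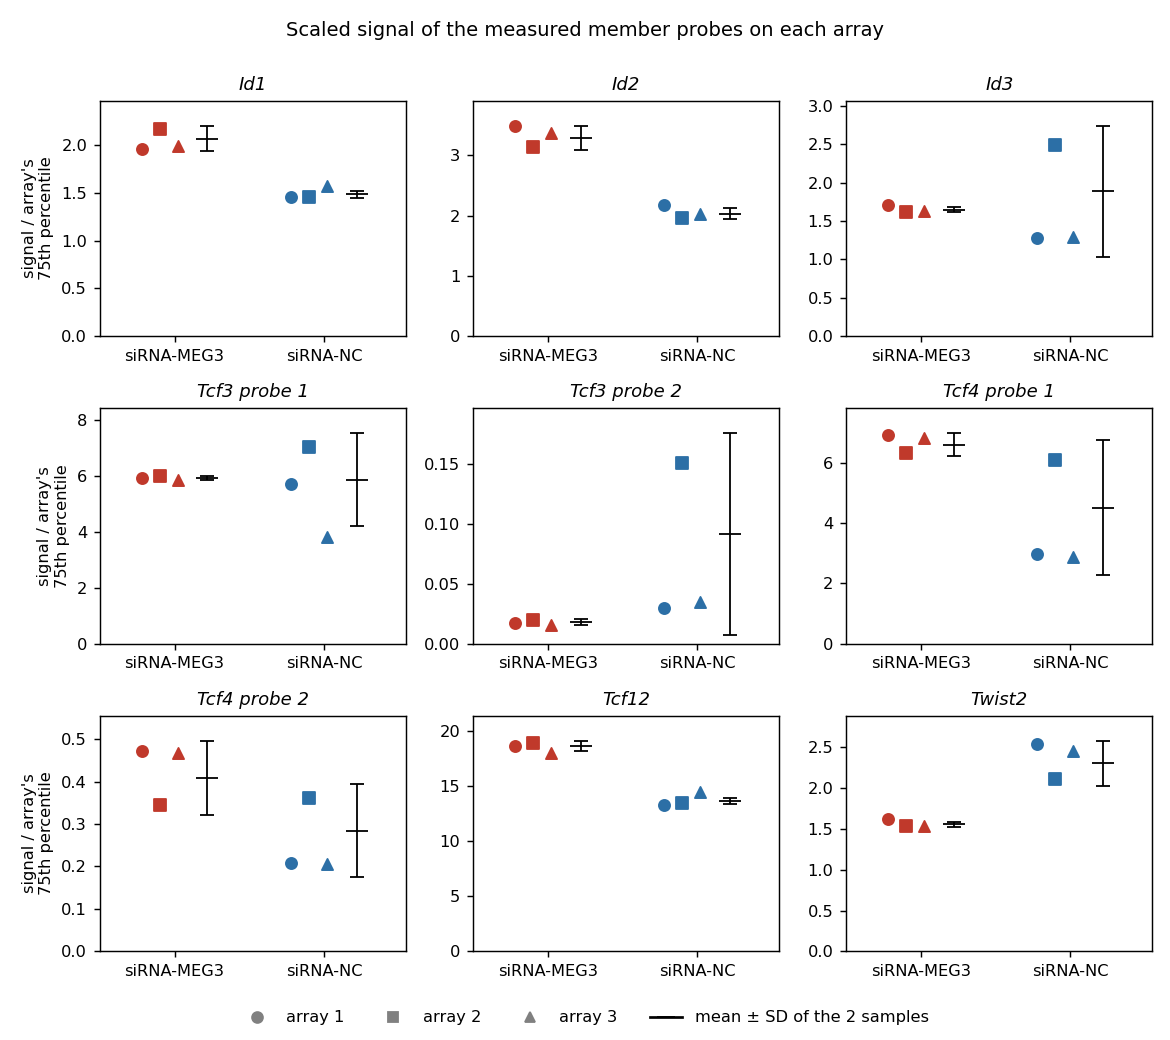
Scaled signal (signal over the array's 75th percentile, linear axes from 0) of the 9 measured member probes on siRNA-MEG3 arrays (left in each panel) and siRNA-NC arrays (right), with a marker for each array and bars for the mean ± SD of the 2 samples. Id1, Id2 and Tcf12 lie higher and Twist2 lies lower on all siRNA-MEG3 arrays. siRNA-NC array 2 stands apart for Id3, Tcf3 probe 2 and Tcf4, and all siRNA-NC arrays lie apart from each other for Tcf3 probe 1.

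The E proteins are the shared partners of tissue-specific bHLH factors. Tcf3, whose splice forms are the classical E2A proteins, lies on chromosome 10 and had 2 probes, numbered by their signal in siRNA-NC. Tcf3 probe 1 read 5.93, 5.98 and 5.84 on siRNA-MEG3 arrays 1 to 3, against 5.72, 7.03 and 3.83 on siRNA-NC arrays 1 to 3. The siRNA-NC arrays spread around the narrow siRNA-MEG3 range, and arrays 1 and 3, counted as 1 sample, differed by 0.58 on the log2 scale. The log2 difference between the groups was 0.05 ± 0.28 (SE; 95% interval -0.72 to 0.82; limma adjusted p = 0.951), with a sign that turned in 6 of 24 alternative settings.

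Tcf3 probe 2, which carries the accession of another transcript of the gene, was dim. It read 0.0174, 0.0201 and 0.0155 on siRNA-MEG3 arrays 1 to 3, against 0.0296, 0.151 and 0.0343 on siRNA-NC arrays 1 to 3. The siRNA-MEG3 arrays were all lower, and siRNA-NC array 2 lay far above the other siRNA-NC arrays. Only 1 of its 3 siRNA-MEG3 readings was well above background, so the size of the log2 difference, -1.93 ± 0.80 (SE; 95% interval -4.08 to 0.22; limma adjusted p = 0.299), is uncertain. Without siRNA-NC array 2 it was -0.81 (adjusted p = 0.156), without siRNA-NC arrays 1 and 3 it was -3.05 (adjusted p = 0.147), and with normexp background correction it was -0.78 (adjusted p = 0.355). Without siRNA-MEG3 array 2 it was -2.08 (adjusted p = 0.00235) and without siRNA-MEG3 arrays 1 and 3 it was -1.79 (adjusted p = 0.0232), both in fits with a lone siRNA-MEG3 sample. The probe counted as measured only through siRNA-NC, where all 3 arrays read it well above background, and its difference from probe 1 was not tested.

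Tcf4, the E-protein gene on chromosome 18, also had 2 probes. Tcf4 probe 1 read 6.92, 6.34 and 6.83 on siRNA-MEG3 arrays 1 to 3, against 2.99, 6.11 and 2.87 on siRNA-NC arrays 1 to 3. siRNA-NC array 2 came close to the siRNA-MEG3 arrays, and siRNA-NC arrays 1 and 3 were far lower. The log2 difference was 0.64 ± 0.42 (SE; 95% interval -0.48 to 1.77; limma adjusted p = 0.487). Without siRNA-NC array 2 it was 1.17 (adjusted p = 0.124), and without siRNA-NC arrays 1 and 3 it was 0.11 (adjusted p = 0.656). Tcf4 probe 2 read 0.471, 0.346 and 0.468 with siRNA-MEG3 and 0.208, 0.362 and 0.206 with siRNA-NC, in the order of arrays 1 to 3. The groups overlapped through array 2 of each, and the log2 difference was 0.56 ± 0.37 (SE; adjusted p = 0.499), so both probes had the same sign. The spot of probe 2 lay in a dark block on siRNA-MEG3 arrays 1 and 3 but not on array 2, which read lower than both. Without siRNA-NC array 2 probe 2 gave 0.96 (adjusted p = 0.183), and without siRNA-NC arrays 1 and 3 it gave 0.16 (adjusted p = 0.788).

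Tcf12, the gene of the E protein HEB on chromosome 9, had 1 bright and 1 dim probe. The bright probe read 18.6, 18.9 and 17.9 on siRNA-MEG3 arrays 1 to 3, against 13.3, 13.4 and 14.4 on siRNA-NC arrays 1 to 3. The groups did not overlap, although its spot lay in a dark block on all 3 siRNA-MEG3 arrays. The log2 difference was 0.45 ± 0.20 (SE; 95% interval -0.10 to 1.00; limma adjusted p = 0.336). The dim probe was well above background on array 2 of each group only, with processed signals of 9.60, 31.4 and 9.06 on siRNA-MEG3 arrays 1 to 3 and 19.4, 107.1 and 22.2 on siRNA-NC arrays 1 to 3, and was not tested.

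Among the MyoD antagonists, Twist2, a mesenchymal bHLH gene on chromosome 1, was the one measured in both groups. Twist2 read 1.62, 1.54 and 1.54 on siRNA-MEG3 arrays 1 to 3, against 2.54, 2.11 and 2.46 on siRNA-NC arrays 1 to 3. Every siRNA-MEG3 array lay below every siRNA-NC array. The log2 difference was -0.56 ± 0.22 (SE; 95% interval -1.15 to 0.03) and did not pass (limma, unadjusted p = 0.0591 and adjusted p = 0.282). Its spot lay in a dark block on siRNA-MEG3 arrays 1 and 3 but not on array 2, which read as low as array 3.

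Twist1, on chromosome 12, showed separate readings near the background. Its processed signal was 21.0, 23.2 and 20.1 on siRNA-MEG3 arrays 1 to 3, and 3.37, 4.02 and 3.05 on siRNA-NC arrays 1 to 3. All 3 siRNA-MEG3 readings were higher, yet only that of array 2 was well above background, and the spot lay in a dark block on arrays 1 and 3. No fold is given, since Twist1 was well above background on 1 array only. With no filter on dim probes its limma adjusted p was 0.0814, in a setting where 0 of 38916 probes passed, so it decides nothing about Twist1. Msc, on chromosome 1, read 5.37, 3.95 and 5.26 on siRNA-MEG3 arrays 1 to 3 and 4.11, 4.44 and 3.86 on siRNA-NC arrays 1 to 3 in processed signal. None of these was well above background.

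**Figure D2:**
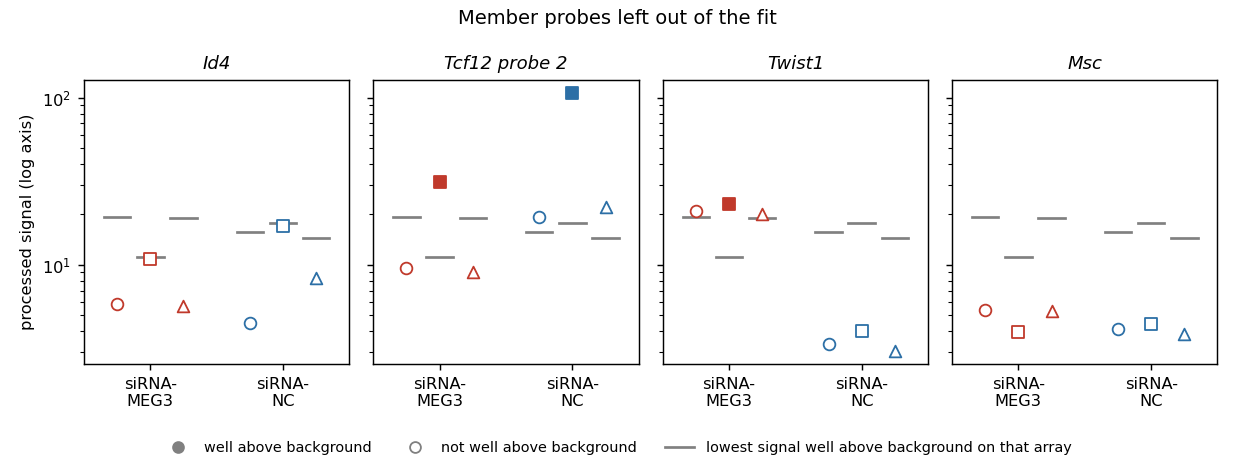
Processed signal (log axis, not scaled between arrays) of the 4 member probes left out of the fit on siRNA-MEG3 (red, left) and siRNA-NC (blue, right) arrays 1 to 3, with filled markers for readings well above background and a grey line for the lowest such signal on each array. Twist1 lies at 20.1 to 23.2 with siRNA-MEG3 and at 3.05 to 4.02 with siRNA-NC, and Id4 and Msc stay below the lines throughout.

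Set side by side, 6 of the 9 measured member probes had groups that did not overlap, 4 higher and 2 lower with siRNA-MEG3. One of the 2 lower probes, Tcf3 probe 2, was kept through its siRNA-NC readings alone, and the share over all measured probes was 47.2%. The median log2 difference was 0.45 over the member probes and 0.05 over all probes, and the median size was 0.56 and 0.38. For 5 of the 9 member probes (55.6%), those of Id3, Tcf3 and Tcf4, the siRNA-NC samples differed from each other by more than the groups did, as was the case for 50.4% of all probes. The siRNA-MEG3 samples lay closer together, with a median log2 distance of 0.12 between them over the member probes, against 0.59 between the siRNA-NC samples. The same held over all measured probes, at 0.14 between siRNA-MEG3 and 0.40 between siRNA-NC samples. The closeness of the siRNA-MEG3 samples may be technical.

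**Figure D3:**
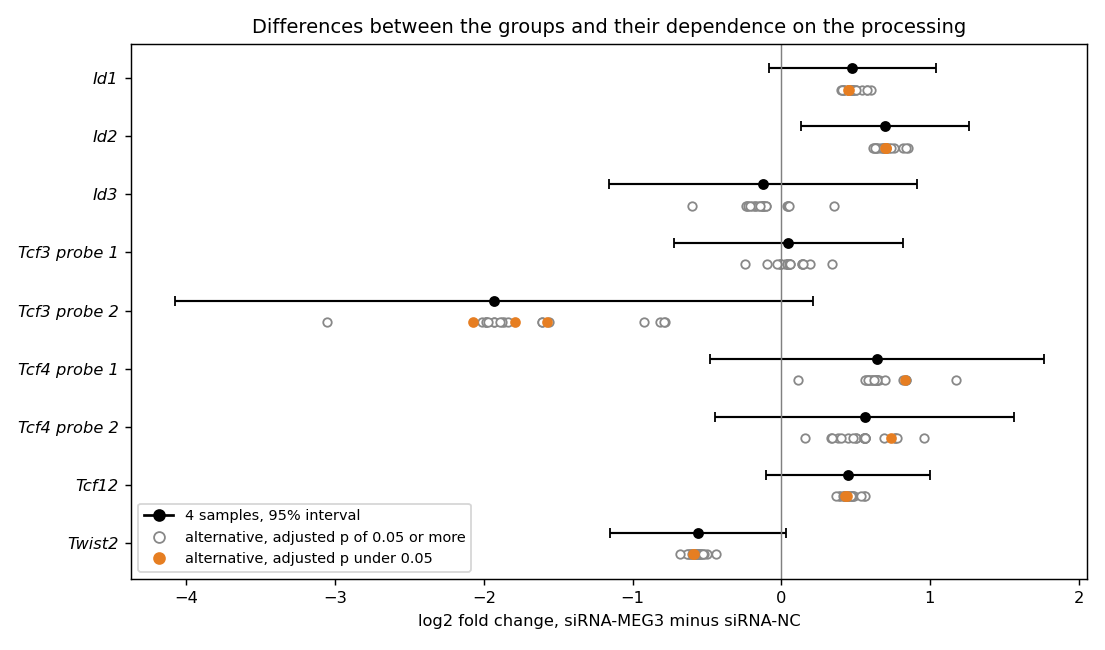
Log2 fold change, siRNA-MEG3 minus siRNA-NC, of the 9 measured member probes with its 95% interval over 4 samples (black), and below it the values under the alternative settings (open where the adjusted p was 0.05 or more, orange where it was under 0.05). Id1, Id2 and Tcf12 stay above 0 and Twist2 below 0 in every setting shown, and Id3 and Tcf3 probe 1 fall on both sides.

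Among the muscle bHLH factors that pair with E proteins, 1 of 4 rose. Myog, which starts terminal differentiation, read 2.40, 2.36 and 2.36 on siRNA-MEG3 arrays 1 to 3, against 0.193, 0.237 and 0.196 on siRNA-NC arrays 1 to 3, and rose by 3.46 ± 0.22 (log2 ± SE, n = 2 samples per group; limma adjusted p = 0.0222). Myod1 stood at 2.29 ± 0.43, Myf6 at 1.19 ± 0.22 and Myf5, the factor of early determination, at -2.87 ± 0.41, none of which passed (adjusted p = 0.110, 0.106 and 0.0701). Here and for the lists that follow, the brightest measured probe stood for its gene, adjustment ran over 22057 genes, and 1.52% of genes passed (1.1% higher and 0.417% lower), with a median log2 difference of 0.06.

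Of 18 genes known as targets of MyoD and E proteins, 17 were measured: 4 rose, none fell and 13 did not pass, with a list median of 1.41. The 4 were Myog, the troponin gene Tnni1 at 3.39 ± 0.22, and the myoblast fusion genes Mymx at 3.80 ± 0.30 and Mymk at 2.92 ± 0.34 (limma adjusted p = 0.0222, 0.0222, 0.0265 and 0.0498). Among 24 other bHLH repressors and MyoD antagonists, 17 were measured, 1 rose and 16 did not pass, with a median of 0.13. That one was Hey1, a Notch-responsive repressor gene. Hey1 read 0.163, 0.155 and 0.165 on siRNA-MEG3 arrays 1 to 3, against 0.0379, 0.0320 and 0.0373 on siRNA-NC arrays 1 to 3, and rose by 2.20 ± 0.22 (limma adjusted p = 0.0388). No gene passed without siRNA-NC array 2 or without siRNA-NC arrays 1 and 3, in fits with a lone siRNA-NC sample, where the adjusted p of Myog was 0.130 and 0.153 at log2 differences of 3.61 and 3.32. The call of Mymk was lost in 9 of 24 alternative settings, among them the labels' scaling factor (adjusted p = 0.0536) and the replicate block (adjusted p = 0.0676), and that of Hey1 in 6, among them the same settings (adjusted p = 0.0528 and 0.0741). The myotube markers share Myog, Mymk, Ckm, Acta1 and Mylpf with the MyoD target list. Their summed signal moved with the groups in the same arrays, in part through these shared genes, and its part in these differences was not tested.

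BMP signalling, which is known to act on Id genes, was followed in 3 lists. Of 20 genes of ligands, receptors and SMADs, 16 were measured and none passed (median 0.13). The ligand gene Gdf6 had the smallest p there, at 1.27 ± 0.25 (limma adjusted p = 0.119). Of 15 antagonists and inhibitory SMADs, 11 were measured and none passed (median 0.13), with Chrdl1, a BMP-binding antagonist gene, at 1.60 ± 0.24 (adjusted p = 0.0719). Of 13 other BMP-responsive genes, 10 were measured. Hey1, which this list shares with the repressors, was the 1 that rose, and 9 did not pass (median -0.07). Of 20 genes listed as regulators of Id or E proteins, 17 were measured and none passed (median 0.33). The serum response factor gene Srf stood at 1.30 ± 0.21 (adjusted p = 0.0896).

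**Figure D4:**
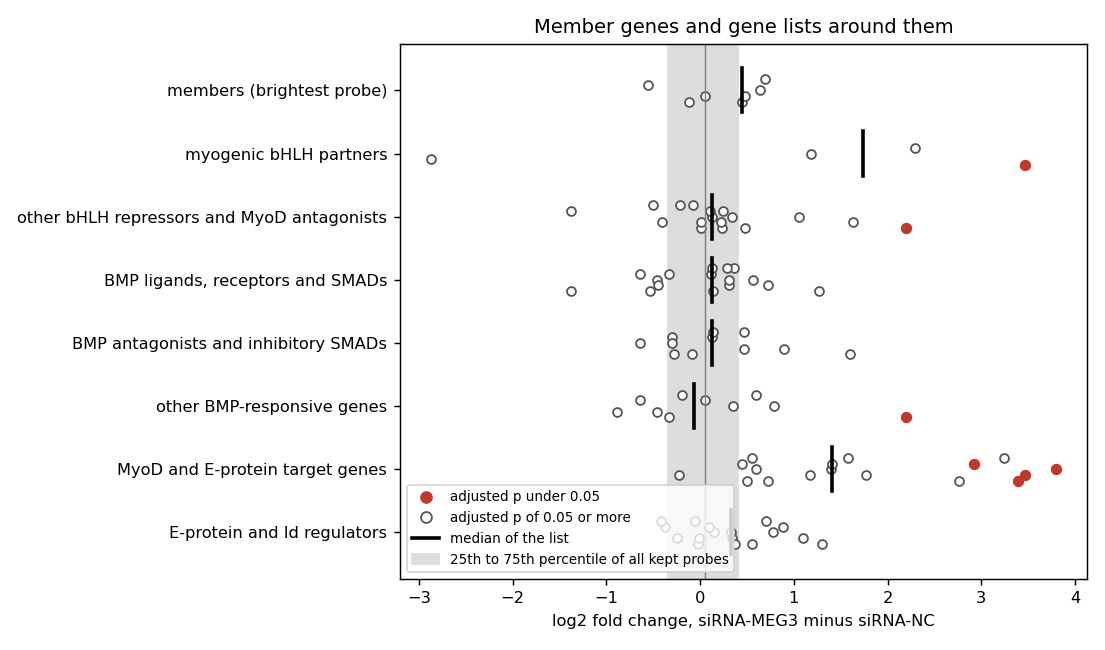
Log2 fold change, siRNA-MEG3 minus siRNA-NC, of the 7 measured member genes and of the genes in 7 lists around them (filled where the adjusted p was under 0.05), with the median of each list as a black bar and the 25th to 75th percentile of all measured probes as a grey band. The 4 called genes of the MyoD target list lie at 2.92 to 3.80, and no member gene is filled.

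The genes whose scaled signal followed a member most closely over the 6 arrays were ranked by the root mean square difference of log2 values, each centred on its siRNA-NC mean, for the 3 member genes with the largest differences on their brightest probe. Nearest to Id2 were Actr6, 4930515G01Rik and Alpl, at 0.025 to 0.034. Nearest to Tcf4 were Gm8801, Zdhhc17 and Ywhag, at 0.020 to 0.045, all with siRNA-NC array 2 close to the siRNA-MEG3 arrays. Such likeness follows from how the genes were picked and tells nothing further about the members. Zdhhc17, for example, read 2.02, 1.79 and 1.94 on siRNA-MEG3 arrays 1 to 3, against 0.856, 1.73 and 0.837 on siRNA-NC arrays 1 to 3. Nearest to Twist2 were Car9, Gm7102 and Ptprk, at 0.041 to 0.043.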

How the data were processed

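Gene expression was measured on 6 single-colour Agilent mouse arrays. Per the file headers, the deposited intensity values were made with Feature Extraction 11.0.1.1, and the processed signal had been background-subtracted and detrended within each array. The authors' deposited log2 table covers 30732 probes, followed the log2 processed signal (r from 0.9991 to 0.9997) and has an unknown between-array step; it served as an alternative. Control spots and outlier spots were left out, spots of a probe were averaged, and log2 signals were centred on each array's 75th percentile. Probes count as measured if every array of 1 or both groups read them well above background and each sample had a value. Of 39429 probes, 27234 were named by RefSeq accession (GRCm38.p6 table). Testing used limma 3.58.1 under R 4.3.3 (Benjamini-Hochberg over all measured probes, 2 residual and 2.31 prior degrees of freedom), checked on simulated data. Precision is limited by how few samples there are. The exact permutation test of 2 against 2 samples cannot go below 0.333 and was not used. The members and lists were chosen with earlier results of these data known. All member probes are given; of each list up to 4 genes past the threshold, otherwise the gene with the smallest p, are named. The alternatives changed scaling, background correction, filters, probes, the counting of arrays, the replicate number and the arrays used.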

Additional observations from a re-analysis of the deposited data

How the results depend on the processing

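With 4 samples 0 of 9 member probes passed in limma (1 at an unadjusted p under 0.05), against 357 of 26348 probes in all. Counting the averaged arrays 1 and 3 singly adds residual degrees of freedom. As 6 samples, 4 member probes passed (Id1, Id2, Tcf12 and Twist2) among 6936 in all. With only the rescan averaged (5 samples), 0 and 2250 passed, and with the replicate number as a block in 6 arrays, 1 (Id2) and 3623. Under the replicate block, 4 samples gave 0 and 261. Nothing but the number links same-numbered samples in the labels, and same-numbered arrays did not deviate together (r from -0.038 to -0.029). The scan as a random block, chosen after the data were seen, gave 7 and 15710 with an estimated correlation of -0.47. The scan as a fixed block could not be run because each scan holds 1 group, and the slide was not analysed here. Without a filter on dim probes 0 of 38916 passed (5273 at an unadjusted p under 0.05). Leaving out arrays gave 0 to 2 member probes and 0 to 3143 in all, the extremes in fits with a lone sample in a group. The log2 difference of Id3 changed sign as 6 samples (0.045), with 5 samples (0.0381), with the block in 6 arrays (0.045), with the scan block (0.049) and without siRNA-NC array 2 (0.356), and leaving out arrays moved it between -0.60 and 0.36. Tcf3 probe 1 changed sign with the percentile over probes detected on all arrays (-0.0083), the labels' factor (-0.0069), the authors' table (-0.0012), outlier spots kept (-0.0287), without siRNA-NC array 3 (-0.0964) and without siRNA-NC arrays 1 and 3 (-0.245), and leaving out arrays moved it between -0.24 and 0.34. The other 7 member probes kept their sign in every alternative that measured them, Id1 between 0.40 and 0.60, Id2 between 0.62 and 0.86, Tcf12 between 0.37 and 0.56, Twist2 between -0.68 and -0.44 and Tcf3 probe 2 between -3.05 and -0.78. Normexp scaled to the 75th percentile, chosen after the data were seen, moved the median of all probes to 0.17, from 0.05. Hey1 and Mymk passed in 18 and 15 of 24 alternatives, and Myog, Tnni1 and Mymx in 21. The cause of these changes was not tested. Signal over background limits Id4, Msc, Twist1 and the dim probes of Tcf3 and Tcf12.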
